A study of Mus musculus with 6 samples.

Results

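Atp2a2 encodes SERCA2, the calcium pump of the sarcoplasmic and endoplasmic reticulum. Its level was followed in mice with isoproterenol-induced heart failure (HF) and in control mice, in the heart, in whole blood and in plasma. All probes that carry the name Atp2a2 in the paper's table of mRNAs were taken, by name and without regard to their values. There were 2 such probes of 4093 named mRNA probes held here, for 1 of 3470 named genes. The probe ASMM9PARTA022975 is assigned to the transcript NM_001110140 and the probe ASMM9PARTA029544 to NM_009722. RefSeq lists both accessions under Atp2a2.

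In muscle, SERCA2 moves calcium from the cytosol back into the sarcoplasmic reticulum, which ends each contraction and fills the store for the next. Phospholamban restrains the pump, and β-adrenergic stimulation lifts this restraint through phosphorylation. Splicing at the end of the transcript gives SERCA2a, the main form of heart and slow muscle, and SERCA2b, a form found in most tissues. Lower SERCA2a activity is a known feature of failing hearts. Which splice form each of the probes measures is not given in the sources used here, so the probes are called by their transcript accessions.

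HF mice were male C57BL/6J mice that were injected under the skin with isoproterenol, which stimulates β-adrenergic receptors, at 40 mg/kg/day over 1 week, and saline was injected into control mice of the same strain. By the paper's microarray methods, RNA of 5 mice was mixed for each condition. The paper's extraction methods, however, describe plasma taken from more mice, and the whole blood volumes given there also come to more mice. Each of the 6 mixtures (heart, whole blood and plasma, HF and control) was hybridised to 1 array with a single dye. No condition had a replicate, so no test, SD or p-value was computed, and the differences are between single mixtures. The only errors available are those that the scanner software gives for a spot within an array, and they leave out the differences between mice and between arrays. Both heart arrays, HF whole blood and HF plasma lay in 1 scan, and control whole blood and control plasma in the other, so that scan and condition cannot be told apart in the blood samples.

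Levels are log2 processed signals after quantile normalization over the 6 arrays. A probe is called detected where the scanner software marked its spot as well above background and did not mark it as an outlier. Detected probes made up between 25.0% (control whole blood) and 47.3% (control heart) of the 59729 probes on an array. The labelled tissues were checked against their markers. In both hearts 30 of 31 probes of a list of 13 cardiomyocyte genes were detected, and in both whole blood samples all 5 erythroid probes were. These lists did not separate the tissues, since the erythroid probes were also detected in both hearts and in control plasma, and 28 of the 31 cardiomyocyte probes in HF whole blood. Myh6 (α-myosin heavy chain), a defining gene of the heart list, went against its label: its probe had a higher level in whole blood (14.47 control, 14.71 HF) and plasma (14.36 and 14.38) than in heart (10.88 and 10.68). Summed levels of the list are therefore given without Myh6.

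Atp2a2 was bright in both hearts, and its highest level outside the heart was in HF whole blood. The processed signal of the NM_001110140 probe, before normalization, was 34198 in control heart and 24585 in HF heart. Whole blood gave 109 in control and 706 in HF, and plasma 116 and 21.7. The normalized log2 levels were 13.89 (control) and 13.82 (HF) in heart, 6.70 and 10.34 in whole blood, and 7.23 and 5.41 in plasma. Both hearts stood above all blood samples, HF whole blood stood between them and the rest, and HF plasma was lowest. The NM_001110140 probe was detected on 6 of 6 arrays, and its signal lay above all 308 negative control spots of each array. In HF plasma, however, its level was close to the lowest level of any detected probe on that array, 5.37.

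The NM_009722 probe separated heart and HF whole blood from the other samples more sharply. Its processed signal was 120088 in control heart, 101424 in HF heart and 5676 in HF whole blood. None of the other values was well above background: 12.2 for control whole blood, and 5.92 (control) and 7.93 (HF) for plasma. The normalized log2 levels were 16.57 (control) and 16.91 (HF) in heart, 2.65 and 13.92 in whole blood, and 2.73 and 3.66 in plasma. The NM_009722 probe was thus detected on 3 of 6 arrays. In control whole blood its signal was the lowest value on the array, shared by 30411 spots. Of the 308 negative control spots, 58 (18.8%) were at or above its signal in control plasma and 4 (1.30%) in HF plasma. With the weaker flag of the scanner software, positive and significant against background, it counted as detected on 5 of 6 arrays.

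**Figure D1:**
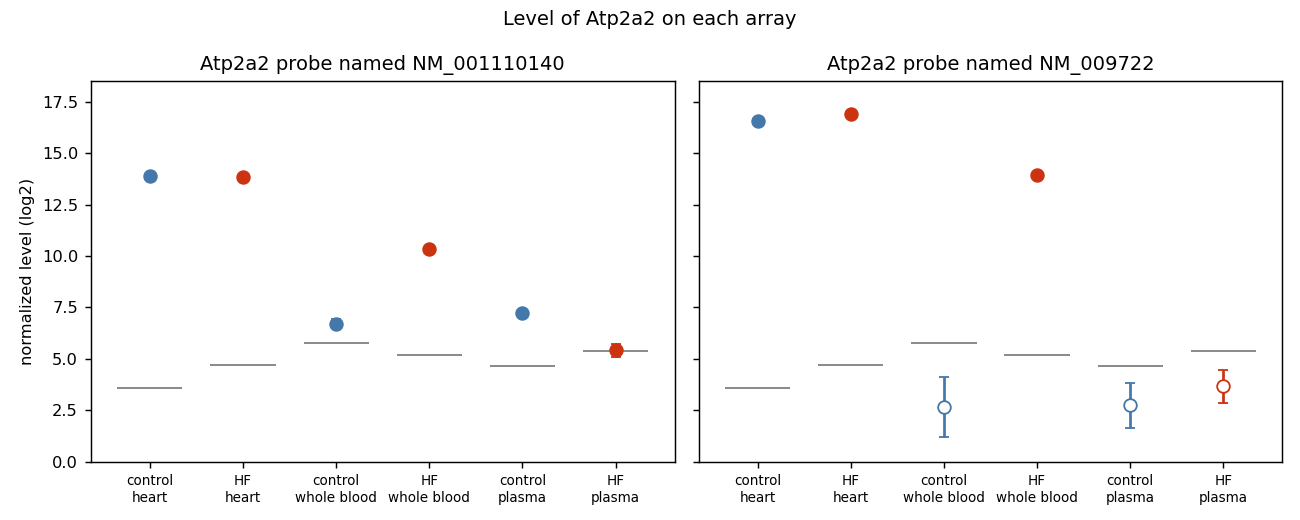
Normalized log2 level (vertical axis) of the NM_001110140 and NM_009722 probes of Atp2a2 on each of the 6 arrays, with filled points where the probe was well above background, open points where it was not, and bars for the error of a spot within an array. Both probes are high in heart (13.82 to 16.91) and next highest in HF whole blood (10.34 and 13.92).

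The order of the levels can be set against the error within an array. For NM_001110140 the order was control heart, HF heart, HF whole blood, control plasma, control whole blood and HF plasma. The neighbours control heart and HF heart differed by less than their combined error of 0.20. Control plasma and control whole blood differed by 0.53 with a combined error of 0.27, and control whole blood lay 1.29 above HF plasma with a combined error of 0.38. For NM_009722, HF heart lay 0.34 above control heart with a combined error of 0.20, HF whole blood came next, and the remaining 3 samples, all not well above background, have no order.

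The first comparison asked whether Atp2a2 differed between HF and control heart. The level of NM_001110140 in HF heart minus control heart was -0.07 ± 0.20 on the log2 scale (combined error within the arrays), and that of NM_009722 was 0.34 ± 0.20, a 1.27-fold higher level in HF heart. Neither probe reached a 2-fold difference. Of the 20065 probes detected in both hearts, 13.9% stood 2-fold or more above control in HF and 12.9% 2-fold or more below it, and the middle of this distribution ran from -0.59 to 0.62 (quartiles). Both Atp2a2 probes fell inside these quartiles. Of all probes detected in both hearts, 45.8% had a difference at or below that of NM_001110140, and 35.7% had one at or above that of NM_009722. The probes differed from each other by 0.42 in this comparison, with a combined error of 0.29.

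The sign of the heart difference depended on the scaling. Without scaling between arrays, the difference was -0.48 for NM_001110140 and -0.24 for NM_009722, while the median over all probes detected in both hearts was -0.71. Relative to that median, the Atp2a2 probes were at 0.23 and 0.47. With scaling to the 75th percentile of each array they were 0.44 and 0.67 higher in HF heart, so that the largest size found was 1.59-fold, for NM_009722. The split over all probes moved as well, to 959 higher and 7875 lower without scaling and to 3940 higher and 2407 lower with the 75th percentile. The summed level of the cardiomyocyte probes without Myh6 was 581440 in control and 550728 in HF heart, and its direction likewise turned with the scaling. The fibroblast sum was 9601 in control and 24289 in HF heart, and its part in the Atp2a2 values was not tested. In bulk RNA, fewer cells of a type and less RNA per cell cannot be told apart.

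In whole blood, Atp2a2 was higher in HF with both probes. NM_001110140 was 6.70 in control and 10.34 in HF whole blood, a log2 difference of 3.65 ± 0.26 or 12.5-fold. Among the 11938 probes detected in both whole blood samples, 21.4% were at least 2-fold higher and 26.8% at least 2-fold lower in HF, and 172 (1.44%) had a difference at or above that of NM_001110140. NM_009722 was detected in HF whole blood and not in control whole blood. Set against the lowest level of any detected probe in control whole blood, it was at least 282-fold higher in HF, a log2 difference of at least 8.14. The same pattern, detected in HF whole blood and not in control whole blood, was shown by 15.4% of the 20065 probes detected in both hearts.

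The direction in whole blood was the same under all settings tried. The difference of NM_001110140 was lowest at 6.34-fold (normexp background correction), and was 6.46-fold without scaling, where the median of all probes detected in both samples was -0.93. The bound for NM_009722 was 92.9-fold without scaling. Without scaling 1093 probes were higher in HF whole blood and 5741 lower, and with the 75th percentile 1978 and 3891.

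In plasma, the probe that could be compared was lower in HF. NM_001110140 was 7.23 in control and 5.41 in HF plasma, a log2 difference of -1.82 ± 0.36, or 3.53-fold lower. Of 12377 probes detected in both plasma samples, 32.1% were at least 2-fold higher in HF and 25.6% at least 2-fold lower, and 16.7% had a difference at or below that of NM_001110140. With normexp the difference was 1.68-fold lower, which is under 2-fold. NM_009722 was well above background in neither plasma sample, so no fold is given. Without scaling, 2315 probes were higher in HF plasma and 5083 lower.

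**Figure D2:**
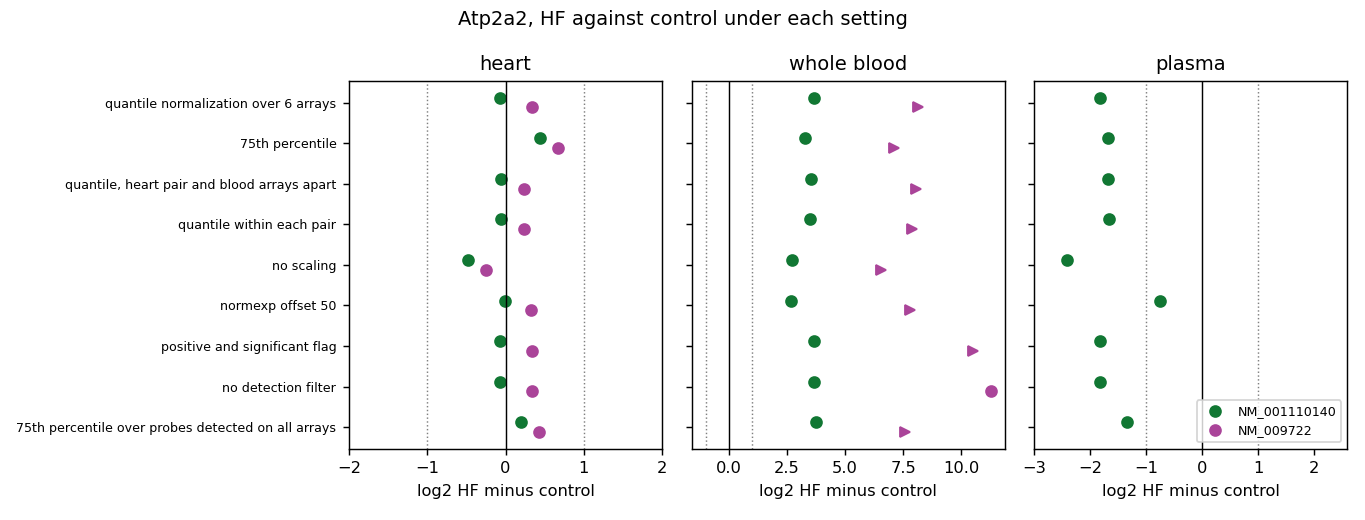
Log2 level in HF minus control (horizontal axis) for the probes of Atp2a2 in heart, whole blood and plasma under each scaling, background and detection setting (vertical axis), with triangles for lower bounds and dotted lines at a 2-fold difference. In heart the points lie on both sides of 0 and inside the dotted lines, in whole blood they lie to the right of them, and in plasma NM_001110140 lies to the left of 0.

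Blood and heart were next set side by side for the same probe. In control mice NM_001110140 was 7.19 higher on the log2 scale in heart than in whole blood (146-fold) and 6.66 higher than in plasma (101-fold). For NM_009722 the corresponding bounds were at least 1772-fold and at least 3907-fold. In HF mice the distance between heart and whole blood was much shorter, 3.47 (11.1-fold) for NM_001110140 and 2.99 (7.97-fold) for NM_009722. Control heart and the control blood samples lay in different scans, whereas the HF samples lay in the same scan. Scan and condition therefore cannot be told apart in this comparison of distances. The distance between HF heart and HF plasma was 8.41 (340-fold) for NM_001110140 and at least 2973-fold for NM_009722. HF whole blood was 30.6-fold above HF plasma for NM_001110140 and at least 373-fold for NM_009722.

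The distances of the probes from HF heart to HF whole blood differed by 0.48 with a combined error of 0.29. Of the 13106 probes detected in both HF heart and HF whole blood, 37.8% were at least 2-fold lower in whole blood, and the median over all was 0.20 in whole blood minus heart. For the 27 cardiomyocyte probes detected in both samples the median was -3.31 (from -4.33 to 4.03). For the 17 of them that were not detected in control whole blood it was -3.47, with quartiles of -3.85 and -3.03. These 17 share the detection pattern of NM_009722 by the way they were picked, and several are probes of Tnnt2. They are therefore no independent reference for Atp2a2. The value of NM_001110140 lay inside these quartiles and that of NM_009722 just above the upper one. This distance moved with the scaling: quantile normalization of the heart pair apart from the blood arrays gave -5.05 and -3.43 for the Atp2a2 probes and -4.77 for the median of the 27.

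Cardiomyocyte markers differed between HF and control blood beside Atp2a2. In whole blood 13 of 31 probes of the list were detected in control and 28 in HF. Detection over all probes was 25.0% in control and 29.8% in HF whole blood. The summed level of the list without Myh6 was 7117 in control and 102284 in HF. Tnnc1 (cardiac troponin C) and Actc1 (cardiac α-actin) had levels of 11.96 and 12.99 in HF whole blood, while in control whole blood neither probe was well above background. The list did not move as 1: of its 11 probes detected in both whole blood samples, 4 were at least 2-fold higher and 3 lower in HF. Over all probes detected in both, 21.4% were at least 2-fold higher and 26.8% lower. Another 17 probes of the list were detected in HF whole blood only and 2 in control whole blood only. Of the 29 probes of the list detected in both hearts, 17 (58.6%) were detected in HF whole blood and not in control whole blood. Over all probes detected in both hearts, this share was 15.4%. Several of the 17 are probes of Tnnt2. Tpm1 (α-tropomyosin), with Myh6 the brightest gene of the list, had probes that disagreed in whole blood. Its probe with the highest mean over the arrays, NM_001164248, was at 11.35 in control and 14.74 in HF, whereas NM_001164250 was at 9.68 and 7.32 and NM_001164253 at 9.37 and 6.67. Without Myh6 and Tpm1 the summed level in whole blood was 1110 in control and 28319 in HF.

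In plasma 20 probes of the list were detected in control and 10 in HF, where detection over all probes was 33.5% and 29.0%. Of the 29 probes detected in both hearts, 9 (31.0%) were detected in control plasma only, beside 20.9% of all probes detected in both hearts. The 10 probes detected in both plasma samples had a median difference of 0.34, with 2 at least 2-fold higher and 1 lower in HF. Over all probes detected in both plasma samples, 32.1% were at least 2-fold higher and 25.6% lower. The summed level without Myh6 was 6781 in control and 1455 in HF plasma, but without Tpm1 as well it was 1100 and 1380, and the direction of this last pair turned without scaling. The part of these markers in the Atp2a2 differences was not tested.

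**Figure D3:**
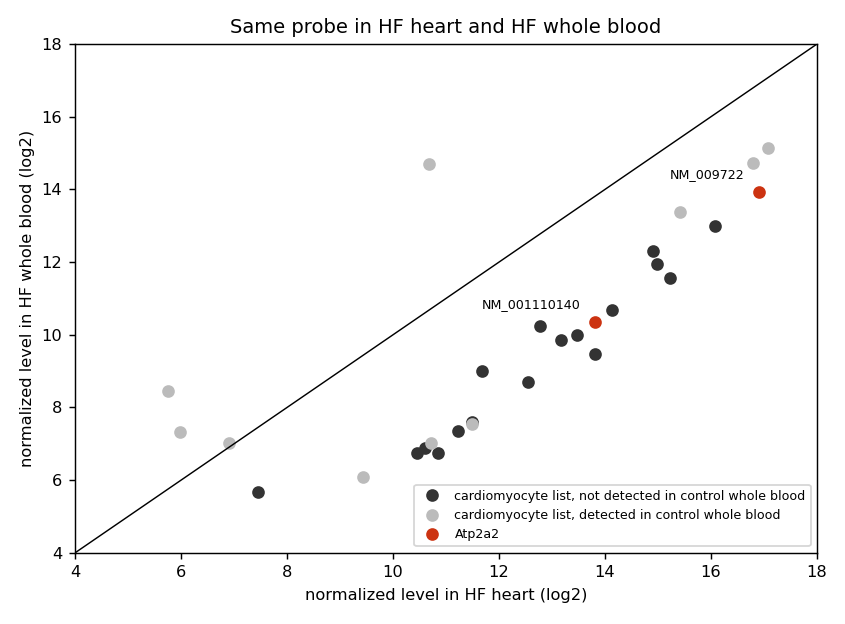
Log2 level of the same probe in HF heart (horizontal axis) and HF whole blood (vertical axis) for the Atp2a2 probes and the cardiomyocyte probes detected in both. Cardiomyocyte probes are shaded by whether they were detected in control whole blood. The Atp2a2 probes lie 3.47 and 2.99 below the line of equal level, among the cardiomyocyte probes, whose median difference is -3.31.

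Markers of blood cells also differed between the conditions. Hba-a1 and Hbb-b1, the globin genes of red cells, had levels of 17.58 and 17.64 in control and 17.35 and 17.43 in HF whole blood. In plasma they were 17.53 and 17.58 in control but 13.49 and 7.70 in HF, and the summed level of the erythroid list was 461641 in control and 11888 in HF plasma. The fibroblast markers, 4 probes, were detected with 1 probe in control and 4 in HF whole blood, and their summed level was 1582 and 4677. In plasma it was 2173 and 231. Whether these differences bear on Atp2a2 was not tested.

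The other genes of calcium handling were taken from a list of 39 genes, of which 16 were named here with 22 probes. Phospholamban, the ryanodine receptor and cardiac calsequestrin were not among the genes named here. In heart all 22 probes were detected in control and 13 in HF, where detection over all probes was 47.3% and 35.1%. Of these 13, none was at least 2-fold higher and 3 were at least 2-fold lower in HF, beside 13.9% and 12.9% of all probes. The median difference was 0.08 beside 0.02 for all probes. As for Atp2a2, small heart differences depended on the scaling: the sign turned under at least 1 scaling or background setting for 7 of the 13, among them Camk2g, Sri, Calr, Fkbp1a and 2 probes of Asph. In whole blood 6 probes were detected in both samples, 0 higher and 3 lower, with a median of -0.71 beside -0.13. Over all probes there, 21.4% were higher and 26.8% lower. In plasma 10 probes were detected in both, 2 higher and 2 lower, with a median of -0.01 beside 0.21. Over all probes in plasma, 32.1% were higher and 25.6% lower.

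Among the calcium pumps, Atp2a1 (SERCA1, the pump of fast skeletal muscle) had another pattern than Atp2a2. Its level was 4.53 in control heart and 7.56 in control whole blood, and it was not well above background in HF heart. In whole blood it was 1.27 lower in HF (6.29), where Atp2a2 was higher, and in plasma it went from 7.56 in control to not well above background in HF, at least 4.54-fold lower. Atp2b2, a calcium pump of the plasma membrane, was detected in control heart and not in HF heart, with both probes. The lowest level of any detected probe was 3.56 in control heart and 4.72 in HF heart. The NM_009723 probe of Atp2b2 was at 4.10 in control and 4.14 in HF heart. It was detected in all blood samples, at 9.65 in control whole blood and 9.40 in HF, and at 9.50 and 8.84 in plasma.

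Among the proteins of the reticulum, Asph, whose gene also gives the junctional protein junctin, was lower in HF heart with its NM_001177855 probe, 12.10 in control and 10.30 in HF. This probe, like NM_009722 of Atp2a2, was detected in HF whole blood (6.73) and not in control whole blood. Its NM_001177850 probe was also detected in HF whole blood and not in control, and was at 5.66 and 5.74 in heart. Canx (calnexin) by its NM_007597 probe was 7.29 in control and 5.23 in HF heart, a log2 difference of -2.06. Canx by NM_001110499 was at least 5.25-fold lower in HF heart. Calr (calreticulin), a calcium-binding chaperone, was 0.37 higher in HF heart, and Hspa5 (BiP), the main chaperone of the reticulum, went from 7.49 to 6.90.

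Of the listed probes detected in both plasma samples, the 2 that were at least 2-fold higher in HF were Hspa5, with 5.93 in control and 13.01 in HF (136-fold), and Canx by NM_001110500, with 5.41 and 10.16. The other Canx probes differed by 0.00 and -0.03 there, so the probes of this gene disagreed. Asph by NM_001177856 and Camk2g were detected in HF plasma and not in control plasma, at least 14.6-fold and at least 4.36-fold higher. By contrast, the NM_001110140 probe of Atp2a2 was lower in HF plasma, near the lowest level of any detected probe there. The NM_009722 probe of Atp2a2 was well above background in neither plasma sample and gives no direction.

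Among regulators, the calmodulins bind calcium and switch on its target enzymes. Calm3 was lower in HF heart (9.49 in control, 7.95 in HF), and Calm2 was 0.70 higher. In whole blood Calm2 was lower in HF (13.40 and 12.19), and Calm3 was detected in HF only. In plasma Calm2 was at 13.32 in control and 9.03 in HF.

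The remaining members showed smaller heart differences where these could be measured. Camk2g, a calmodulin-dependent kinase, was 0.61 higher in HF heart, and Camk2a and Camk2b of the same family were detected in control heart and not in HF heart. Fkbp1a and Sri (sorcin), which bind the ryanodine receptor, differed by 0.13 and 0.06. Cacna1d, a subunit of L-type calcium channels, was detected in control heart and not in HF heart. In whole blood Sri was 1.13 lower in HF and Cacna1d at least 5.71-fold lower.

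**Figure D4:**
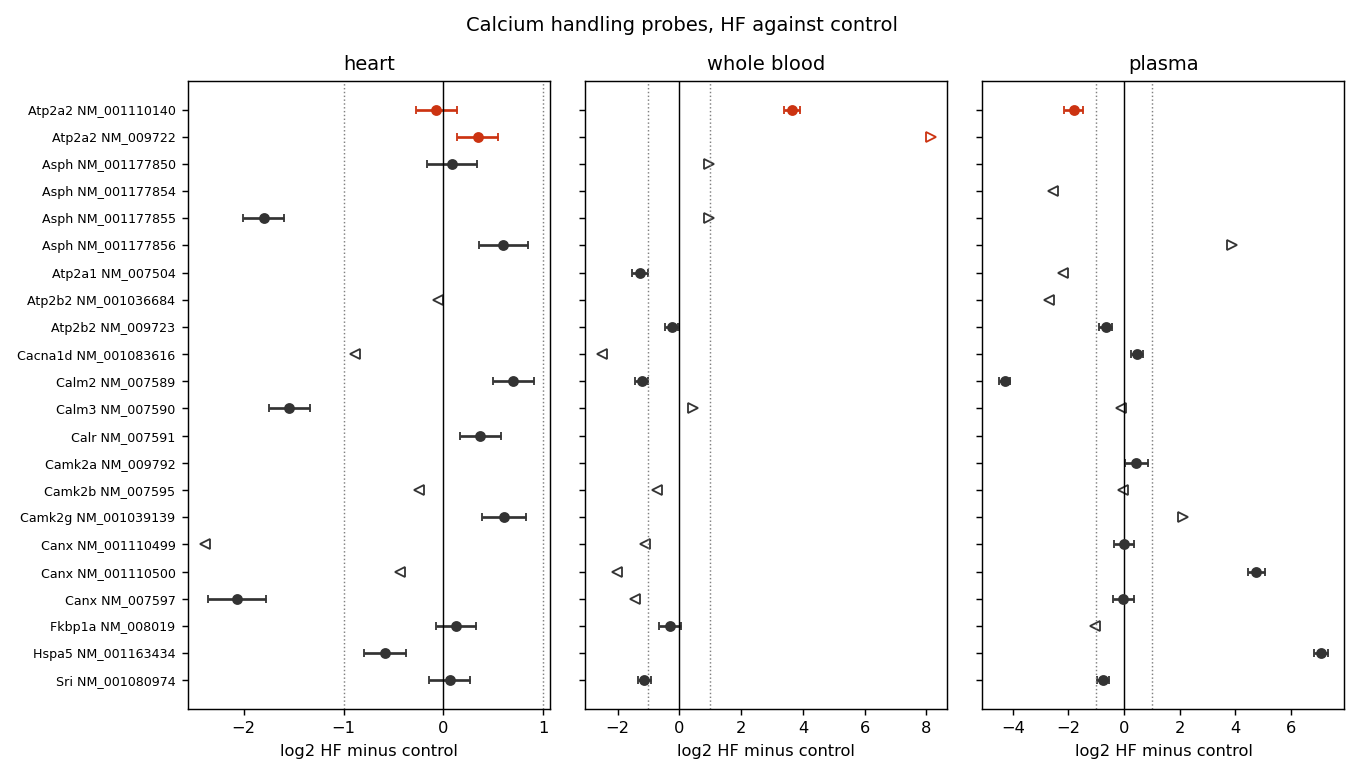
Log2 level in HF minus control (horizontal axis) in heart, whole blood and plasma for the Atp2a2 probes and for probes of the calcium handling list (vertical axis), as measured values or as bounds where a probe was well above background in 1 sample of the pair. In whole blood no other listed probe detected in both samples is 2-fold higher, whereas NM_001110140 of Atp2a2 is at 3.65.

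The mRNA probes with the profile nearest to Atp2a2 over the 6 arrays were then sought among 3017 named probes of other genes detected in both hearts, by Euclidean distance of log2 levels. Nearest to NM_001110140 were Gstm2 (a glutathione transferase), with a distance of 0.49, Tgm2 (transglutaminase 2), with 1.01, then Mdh1 (cytosolic malate dehydrogenase), Gm9790, with 1.74, and Pcolce (an enhancer of procollagen processing), with 1.76. Gstm2 had levels of 13.55 (control) and 13.60 (HF) in heart, 6.64 and 10.16 in whole blood, and 7.43 and 5.19 in plasma, and was not detected in HF plasma. Pearson's r with the Atp2a2 probe was 0.999 for Gstm2 over the 6 arrays, a description in which all points come from the same mixtures.

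Nearest to NM_009722 were genes of heart muscle and its mitochondria. Cox8b (a subunit of cytochrome oxidase) had a distance of 1.48, Actc1 came next, and then Fabp3 (the fatty acid binding protein of heart) with 1.55, Cox6a2 (another cytochrome oxidase subunit) with 2.55 and Tnnc1 with 2.79. Actc1 was at 15.73 in control heart, 16.07 in HF heart and 12.99 in HF whole blood, and like NM_009722 it was not well above background in the other 3 samples. Cox8b, with 16.91, 16.60 and 13.74 in the same samples, was detected in control plasma too (6.02).

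**Figure D5:**
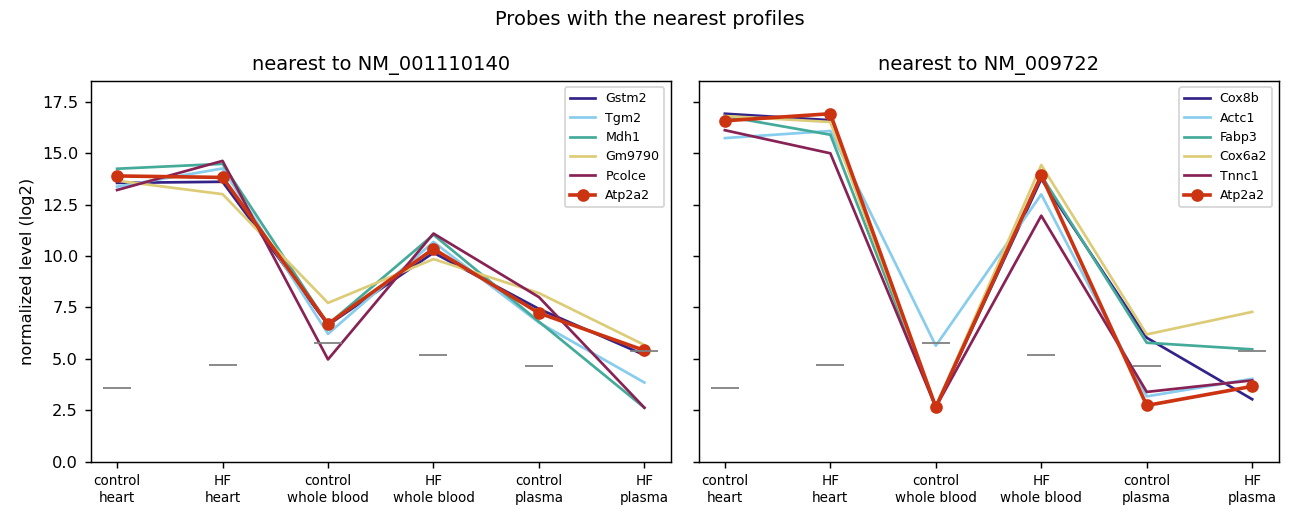
Normalized log2 level (vertical axis) on each of the 6 arrays for the NM_001110140 and NM_009722 probes of Atp2a2, each with the 5 named probes of other genes that lie nearest to it. In each panel the lines are high in both hearts, lower in HF whole blood and lowest in the other blood samples.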

How the data were processed

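LncRNA and mRNA levels were measured on 6 arrays of mixed RNA, 1 per condition. The authors' scanner files hold a single-colour intensity for each spot, and the deposited processed signal had its background removed in Feature Extraction 11.0.1.1, without normalization between arrays. The deposited series table held the same intensity values.

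Without control spots, log2 signals of a probe were averaged and quantile normalized over the 6 arrays. The paper's methods name quantile normalization but not over which arrays. Where a probe was not well above background on 1 array, its level there was replaced by the higher of its own and the lowest level among detected probes, which gives a bound. Errors of a spot were combined in quadrature. The paper's fold threshold of 2 was used. Named were every Atp2a2 probe, all calcium handling genes detected on any array, the 2 brightest genes of each marker list and the 5 nearest profiles per probe. Some genes of the lists are counted but not reported singly here. Members, lists and alternatives were chosen with earlier results of these data known. Probe names came from a part of the mRNA table. For normexp (offset 50) the median intensity stood in for the planned mean. Quantile normalization of a pair and the count of probes changed at the fold threshold were tested on simulated pairs of arrays. The normalization over 6 arrays, the bounds and the nearest profiles were not. Tools were R 4.3.3 with limma 3.58.1, and Python 3.11.15 with pandas 2.3.3, numpy 2.4.6 and matplotlib 3.10.9.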

Additional observations from a re-analysis of the deposited data

Results flagged for a closer look

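The NM_001110140 probe of Atp2a2 differed in opposite directions in whole blood and plasma: HF minus control was 3.65 in whole blood and -1.82 in plasma, on the log2 scale. Each value rests on 1 pair of arrays, both controls were in the other scan than both HF samples, and the difference between the pairs was not tested. The direction in each was the same under every setting tried, and with normexp the plasma difference was under 2-fold.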

How the results depend on the processing

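No paired analysis was possible because each condition had 1 array and the labels give no replicate numbers, and leaving out an array would leave a condition empty. All settings but that over probes detected on all arrays, and the count of detected arrays under the weaker flag, were planned. Of the alternative values, 76 moved by more than the error within the arrays or by over 1.5 times and 104 did not. This tally does not measure robustness, since some values could not move. For a probe detected on both arrays, the detection settings return the main value. In heart, quantile normalization within each pair and that of heart and blood apart are the same computation. Values are log2 unless counts, and counts are higher and lower in HF at the fold threshold. The causes were not tested.

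With the 75th percentile, heart values were 0.44 (NM_001110140) and 0.67 (NM_009722), whole blood NM_001110140 was 3.28, whole blood minus heart in HF was -4.36 and -3.40 and -3.91 for the cardiomyocyte median, and 1 calcium probe was higher in heart. With the percentile over probes detected on all arrays, NM_001110140 was 0.20 in heart and -1.35 in plasma, whole blood minus heart was -3.72 and -2.76, and 1 calcium probe was lower in whole blood. Without scaling, heart values were -0.48 and -0.24, whole blood 2.69 and a bound of 6.54, plasma -2.42, and whole blood minus heart -5.12, -4.16 and -4.68. All probes then gave 959 and 7875 in heart, 1093 and 5741 in whole blood, and 2315 and 5083 in plasma, and 5 calcium probes were lower in heart and 4 in plasma. Quantile normalization within each pair gave -4.82, -3.36 and -4.58 for whole blood minus heart, and that of heart and blood apart -5.05, -3.43 and -4.77. With normexp, NM_001110140 was -0.75 in plasma and 2.66 in whole blood, the cardiomyocyte median was -2.91, and all probes in heart gave 1024 and 1299.

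At a 1.5-fold threshold, all probes in heart gave 5274 and 5022, and calcium probes gave 3 and 5 in heart and 4 lower in plasma. At 4-fold, all probes gave 560 and 224 in heart, 1025 and 1304 in whole blood and 2237 and 1880 in plasma, with 1 calcium probe lower in heart and 0 in whole blood. With the weaker flag, NM_009722 was detected on 5 arrays and its whole blood bound was 10.51, all probes gave 4292 and 4158, 5599 and 6555, and 8569 and 7371 in heart, whole blood and plasma, and calcium probes gave 5 lower in heart, 2 and 8 in whole blood and 7 lower in plasma. With no detection filter NM_009722 was 11.27 in whole blood, all probes gave 5052 and 5672, 12078 and 12174, and 12890 and 12885, and calcium probes gave 6 lower in heart, 4 and 10 in whole blood and 4 and 10 in plasma. Signal over background limits NM_009722 in 3 blood samples and NM_001110140 in HF plasma.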

Other observations

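Neutrophil markers were higher in HF in all tissues. S100a9 (a subunit of calprotectin) was at 7.99 in control and 10.07 in HF heart, 9.39 and 13.53 in whole blood, and 9.77 and 11.92 in plasma. Camp (cathelicidin) was at 5.14 and 9.60 in heart and 7.90 and 12.29 in whole blood, and at 11.89 in HF plasma. The summed level of the list in whole blood was 914 in control and 18647 in HF, and like the sums of the platelet, fibroblast, endothelial and fast skeletal muscle lists given with it, it had the same direction under each scaling and background setting tried. Among lymphocyte markers, Cd3e, of T cells, was at 9.30 in control and 9.98 in HF whole blood. Platelet markers were lower in HF in all tissues, with sums of 7786 and 3161 in whole blood, 10326 and 210 in plasma, and 891 and 242 in heart. Gp5 was at 12.70 and 11.49 in whole blood and Gp1bb at 8.44 and 8.01.

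In heart, fibroblast and endothelial markers were higher in HF, with summed levels of 9601 and 24289 and of 775 and 2644. Dcn (decorin) was at 9.93 and 10.41, Lum (lumican) at 12.63 and 13.28, and Cd34 at 7.43 and 7.98, and the direction for Dcn and Cd34 turned without scaling between arrays. Of the 6 fast skeletal muscle probes detected in both hearts, 5 were at least 2-fold higher in HF and 1 lower, with a median of 2.21. Over all probes detected in both hearts, 13.9% were at least 2-fold higher and 12.9% lower. Several of the 5 are probes of Tnnt3. Acta1 (skeletal α-actin), the listed probe that was lower, was at 15.57 and 12.61. With it the sum of the list was 49060 in control and 7801 in HF, while Myl1 was at 7.19 and 9.22. Pecam1, of endothelial cells, was at 8.59 and 10.40 with its NM_001032378 probe and at 7.76 and 10.02 with NM_008816. These values are single mixtures and carry no test.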
